A study of Homo sapiens with 14 samples.

Results

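The DDX and DHX families are the DEAD-box and DEAH-box RNA helicases. Members were chosen by symbol, as DDX followed by a number and at most 1 letter or DHX followed by a number, and 1 DDX symbol and symbols ending in Y were left out by the same rule. Of 58434 gene symbols, 54 matched. The 49 that had at least 50 counts in at least 2 of the 4 total mRNA libraries, 33 DDX and 16 DHX, are reported. The 5 matched symbols below that cutoff were DDX4, DDX25, DDX43 and DDX53, which are best known from germ cells, and DDX47, which had 11 to 22 counts in total mRNA. In GENCODE v29 36.5% of the exon bases of DDX47 are shared with the protein-coding gene APOLD1, so its low count is uncertain. The lowest symbols inside the cutoff were DHX58, with 109 to 144 counts, and DDX12P, a pseudogene of DDX11, with 109 to 172.

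RNA helicases of these families use ATP to open short RNA duplexes or to strip proteins from RNA. DEAD-box proteins mostly clamp and unwind RNA locally, whereas many DEAH-box proteins pull on a strand from its end. Between them they serve ribosome assembly, splicing, mRNA export, translation initiation and mRNA decay. DAP5, encoded by EIF4G2, is a relative of the scaffold eIF4G that lacks the binding site for the cap-binding protein eIF4E and binds eIF4A, itself a DEAD-box helicase.

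The cells were MDA-MB-231, a long-established mesenchymal line from a human breast cancer. Lines carrying a doxycycline-inducible TRIPZ lentiviral shRNA, either non-silencing (shNSi) or against DAP5 (shDAP5), were given doxycycline at 1 µg/ml for 6 days, so both groups were exposed to the drug, to lentivirus and to cycloheximide before lysis. Polysomes were separated on sucrose gradients and RNA from 2 cultures a group was sequenced as total mRNA, light polysomes and heavy polysomes. The comparison addressed which mRNAs depend on DAP5 for their place in polysomes. The labels pair no shNSi with any shDAP5 culture and do not say whether the 2 cultures of a group came from separate transductions. Therefore p-values measure the spread between these cultures, and an exact permutation test of 2 against 2 cannot go below p = 0.333. The shNSi cultures were split into 3 gradient pools, light, moderate and heavy, and the shDAP5 cultures into 2. The shDAP5 light libraries carry the code of the moderate shNSi pool and were taken as light by title, and the shDAP5 total libraries are titled as total polysome RNA and were taken as total mRNA by their code.

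The 14 libraries held 25899838 to 30795910 counts each. EIF4G2, the targeted gene, fell in total mRNA by 1.11 on the log2 scale (adjusted p = 0.0172, quasi-likelihood test of edgeR). The call was lost with library sizes without TMM (-1.07, adjusted p = 0.0501), by limma (-1.08, adjusted p = 0.143) and without shDAP5 culture 1 (-0.90, adjusted p = 0.680), while DESeq2 kept it. EIF4G2 was at 1486 and 1431 CPM, counts scaled to a common library size, in the shNSi cultures and at 572 and 782 in the shDAP5 cultures. Of the markers fixed for the line, VIM, CD44, SPARC, AXL, CAV1 and KRT18 were present in every group. In total mRNA 0 of these 6 passed by edgeR, with log2 changes from -1.14 for CD44 (adjusted p = 0.0584, a change as large as that of EIF4G2) to 0.10, in heavy polysomes VIM, CD44 and SPARC fell, and in heavy translation efficiency 0 of 6 passed. The part of these changes in the results on the helicases was not tested. PGR was at 0 and ESR1, FOXA1, CDH1 and PTPRC stayed below 1 CPM in the mean of every group, whereas GATA3, which had been listed among the markers to be near 0, was at 12.7 CPM in shNSi total mRNA and 12.6 in shDAP5 total mRNA.

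The families take their names from motif II, which binds and hydrolyses ATP, and the codons that spell it show how the members divide. The coding sequences of 48 members, all but the pseudogene DDX12P, were searched in frame for GAT or GAC, then GAA or GAG, then a codon for 1 of 5 small or hydrophobic residues, then GAT, GAC, CAT or CAC, with the helicase motif III 15 to 60 codons further on. Of the 48 members 42 held exactly 1 match, against 86 of 19388 other coding sequences, or 0.444%. Coding sequences without an ATG start or with an internal stop counted as unmatched among the members and were left out of the others. A member without a match was therefore not shown to lack the motif. The fourth codon was GAT or GAC in 26 of the 28 matched DDX members and CAT or CAC in all 14 matched DHX members. DDX60 and DDX60L were the 2 DDX members with CAT, the form of the DHX members. The third codon was GCN in 22 of the 28 DDX members and 8 of the 14 DHX members. The 8 sequences below belong to members with low or high changes described further on. They are coding strand, 5′ to 3′, from GENCODE v29 transcripts on GRCh38, with the motif II codons in capitals and 9 bases on either side.
DDX21: gttgtcctgGATGAAGTGGACcagatgttg
DDX46: gttgttttaGATGAAGCAGACagaatgttt
DDX3X: ttggtgttaGATGAAGCTGATcggatgttg
DDX39A: tttgtgctgGACGAGTGTGACaagatgctg
DDX39B: tttattttgGATGAATGTGATaagatgctt
DDX60: gttatatttGATGAGGTTCATtgtcttggt
DHX9: gtaattgtaGATGAAATACATgaaagagat
DHX29: gttattgtaGATGAGGTTCATgaaagaagt
The mRNA export helicases DDX39A and DDX39B share TGT as the third codon, DDX21 has GTG there, and the motif II codons of DDX60 and DHX29 are identical.

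In total mRNA the helicases spanned a wide range of levels. Per 1000 bases of merged exon, the shNSi mean was 81.5 CPM for DDX5, a transcription and splicing coregulator, 76.0 for DDX39A, 71.4 for DDX21, a nucleolar helicase of ribosome synthesis, and 62.4 for DHX9, which unwinds structured RNA in transcription and translation. Values of these 4 neighbours overlapped between cultures: DDX39A had 64.6 and 87.4 CPM per 1000 bases in the 2 shNSi cultures, DDX21 had 75.8 and 67.1, and DHX9 had 50.8 and 74.1. The lowest were DDX60L at 1.85, DDX60 at 1.21 and DHX58 at 1.11, which belong to antiviral RNA sensing.

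No helicase passed the test in total mRNA by edgeR (0 of 49, where 0.354% of 14992 genes were called, 0.0867% higher and 0.267% lower). DESeq2 and limma also called 0, and 2 of the 49 had an unadjusted p under 0.05 in edgeR. The median log2 change of the members was -0.14, against 0.01 over all genes tested. The largest difference was that of DHX32, a DEAH-box protein, at 40.5 and 38.1 CPM in shNSi and 58.4 and 55.1 in shDAP5. Both shDAP5 values lay above both shNSi values, with a log2 difference of 0.53 ± 0.19 (SE) and an adjusted p of 0.254 by edgeR's quasi-likelihood test. In bulk RNA, fewer cells with an mRNA and less of it in each cell cannot be told apart.

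In shNSi cultures the helicase mRNAs lay toward the heavy end of the gradient. Heavy over light polysomes was above 0 for 41 members past the threshold and below 0 for 2, DDX39B and DDX12P, in the quasi-likelihood test of edgeR. Over 16163 genes 66.5% were called, 32.6% higher and 33.9% lower. The median log2 ratio of heavy over light was 1.99 for the members and -0.15 for all genes. Along the 3 shNSi pools, 42 of the 49 members were highest in the heavy pool in both cultures, 3 (DDX12P, DDX39B and DHX58) were highest in the light pool in both, DDX41 was highest in the moderate pool in both, and 3 differed between the cultures. The highest pool was not counted over all genes, so these numbers have no background share beside them.

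At the heavy end stood DDX24, a ribosome assembly helicase, with a heavy over light ratio of 3.20 on the log2 scale in shNSi, and DDX21 with 3.09. DDX24 was at 53.4 and 99.3 CPM in shNSi light polysomes and at 403 and 672 in shNSi heavy polysomes. At the light end was DDX39B, the UAP56 helicase of splicing and mRNA export, with a log2 ratio of -1.20. It was at 76.3 and 74.0 CPM in shNSi light polysomes and at 20.7 and 30.8 in shNSi heavy polysomes, and its log2 ratios on the common scale of the fit were -1.56 and -0.85, against 3.23 and 3.18 for DDX24. Reads of DDX39B, on chromosome 6 (31530219 to 31542448, minus strand, GRCh38), are uncertain, since 29.7% of its exon bases in GENCODE v29 are shared with a readthrough transcript gene, ATP6V1G2-DDX39B.

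With DAP5 silenced, the members were less shifted to the heavy pool. Heavy over light passed the threshold upward for 30 members and downward for 1, DDX39B, where 48.1% of all genes were called, 24.5% higher and 23.6% lower, and the median log2 ratio was 0.89, against -0.03 over all genes. The difference between shDAP5 and shNSi was tested itself, as the interaction of shRNA and fraction. It passed the threshold for 28 of the 49 helicases, 28 lower and 0 higher, where 18.3% of all genes were called, 11.5% lower and 6.89% higher. The median difference was -1.04 for the members and 0.06 for all genes.

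**Figure D1:**
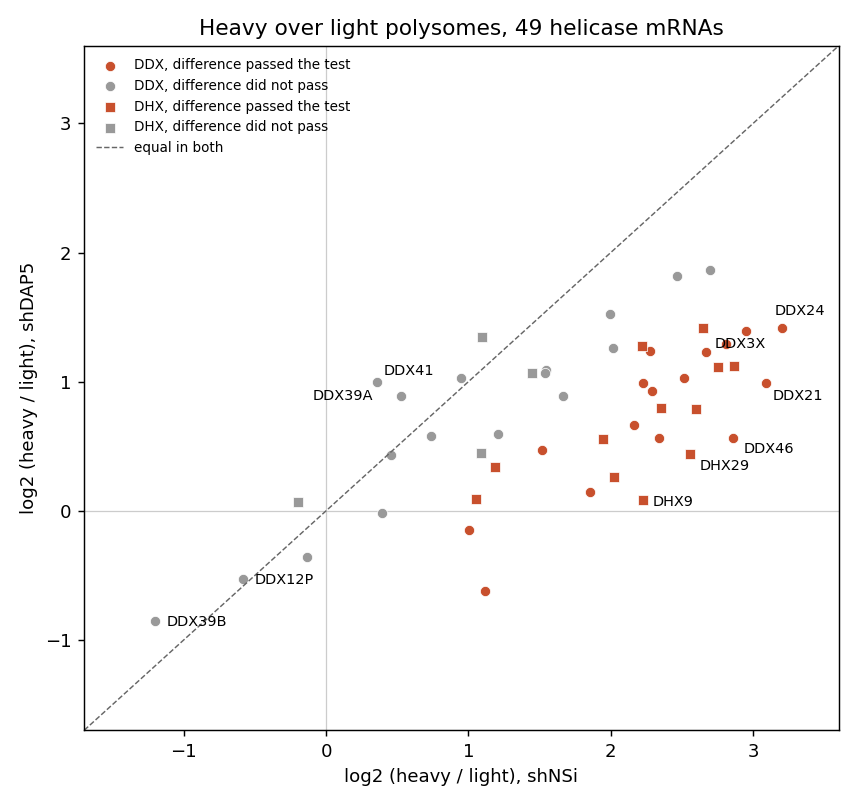
Log2 ratio of heavy over light polysomes for the 49 helicase mRNAs, shNSi on the horizontal axis and shDAP5 on the vertical axis, each point 1 gene from 1 fit of 12 libraries. Circles are DDX and squares DHX, and orange marks the 28 genes whose difference between the shRNAs passed the adjusted threshold, all of them below the dashed line of equal values.

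The difference in heavy over light was lowest for DDX46, a splicing helicase that readies the spliceosome for the branch site and lies on chromosome 5 (134758771 to 134855133, plus strand, GRCh38). DDX46 was at 59.4 and 61.9 CPM in shNSi light polysomes and at 262 and 435 in shNSi heavy polysomes, and at 88.0 and 87.4 in shDAP5 light polysomes against 130 and 85.0 in shDAP5 heavy polysomes. On the common scale of the fit its log2 ratios of heavy over light were 2.46 and 3.23 in the shNSi cultures and 0.83 and 0.25 in the shDAP5 cultures, which did not overlap. The log2 difference was -2.30 ± 0.39 (SE, adjusted p = 0.0106, edgeR quasi-likelihood test). DHX9 followed at -2.14 ± 0.39 and DHX29, which helps the small ribosomal subunit scan structured leaders, at -2.12 ± 0.36, both with an adjusted p of 0.0106 in the same edgeR test.

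With the light pools compared by title, the members' calls lay in the heavy pool. In light polysomes 0 of 49 members passed by edgeR, where 0% of 15529 genes were called, and 0 members had an unadjusted p under 0.05. DESeq2 and limma also called 0. The members' median log2 change there was 0.00. It was -0.40 with the shNSi moderate pool, whose code the shDAP5 light libraries carry, in place of the light pool, against -0.010 over all genes, and 6 members were then lower and 1 higher, where 25.5% of all genes were called. In heavy polysomes 28 of 49 fell and 0 rose by edgeR, where 30.9% of 14270 genes were called, 16.7% lower and 14.2% higher. The median log2 change was -0.999 for the members and 0.09 for all genes tested. The 49 members together took 0.794% and 1.02% of the counts in heavy polysomes of the shNSi cultures. In those of the shDAP5 cultures they took 0.528% and 0.435%, without overlap between the groups. In the shNSi moderate pool the share was 0.270% and 0.443%, which overlapped with that in shDAP5 heavy polysomes. The share is scaled by library size alone and depends on the other genes in a library. In light polysomes the share was 0.263% and 0.312% in shNSi and 0.289% and 0.313% in shDAP5.

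DHX9 (chromosome 1, 182839369 to 182887751 on the plus strand of GRCh38) had the lowest change in heavy polysomes. It was at 388 and 926 CPM in the shNSi cultures and at 155 and 152 in the shDAP5 cultures. The shNSi cultures differed from each other more than the shDAP5 cultures did, and the groups did not overlap. The log2 change was -2.10 ± 0.38 (SE, adjusted p = 6.39e-06, edgeR quasi-likelihood test), or 4.27-fold lower. It was -1.35 without shNSi culture 2, -2.71 without shNSi culture 1, and -2.10 and no longer called without shDAP5 culture 2. DDX21 (chromosome 10, 68956128 to 68985073, plus strand, GRCh38) was at 765 and 905 CPM in shNSi heavy polysomes and at 270 and 198 in shDAP5, 3.56-fold lower. DDX1, which works in tRNA ligation and RNA granules, was at 309 and 507 CPM in shNSi and at 132 and 103 in shDAP5, 3.47-fold lower.

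Heavy translation efficiency, the heavy polysome level over the total mRNA level of the same culture, sets aside differences in total mRNA. On this measure 23 of the 49 helicases fell and 0 rose, where 13.1% of 15374 genes were called, 8.23% lower and 4.85% higher, by edgeR's quasi-likelihood test. DESeq2 called 25 members, where 13.8% of all genes were called, and limma on quantile normalized values called 3, where 2.65% were. The median log2 change was -0.86 for the members and 0.09 for all genes, and for 38 members the 2 shDAP5 values were both under the 2 shNSi values. They were both over them for 2 members and overlapped with them for 9. Over all genes 28.2% lay wholly below and 32.4% wholly above.

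**Figure D2:**
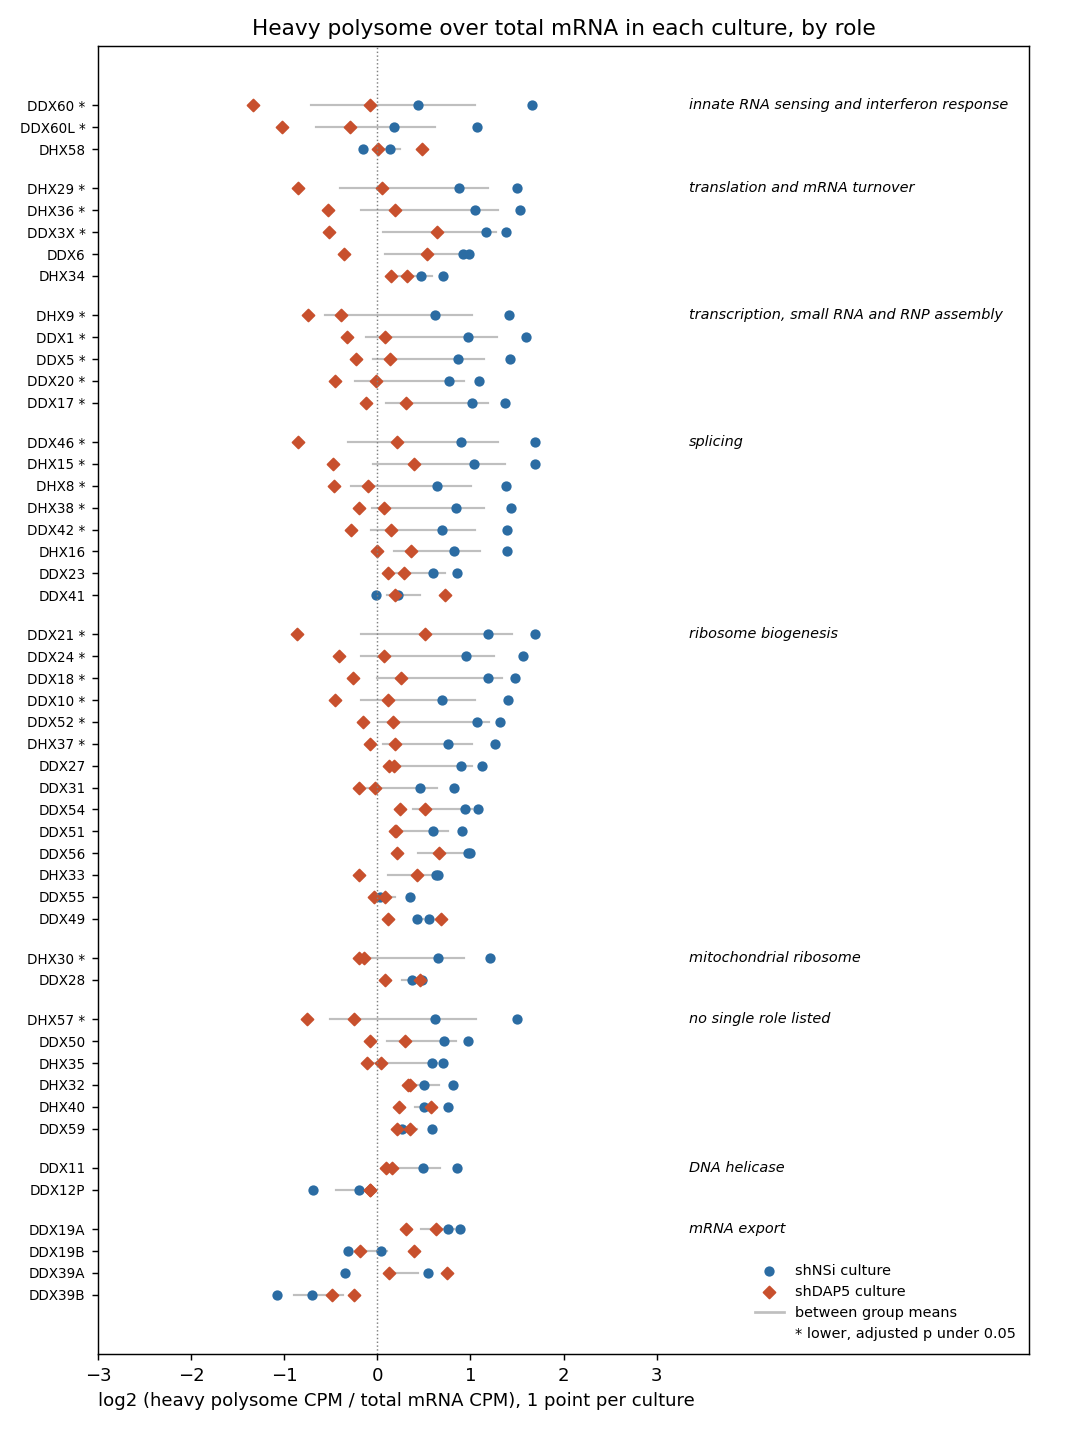
Log2 of heavy polysome CPM over total mRNA CPM, scaled over their 8 libraries, for each of the 49 helicases in each culture, with shNSi as circles and shDAP5 as diamonds, grouped by role. Grey lines join the group means and asterisks mark the 23 genes called lower, none of which is in the export or DNA helicase groups.

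Among the helicases of translation and mRNA turnover, 3 of 5 fell in heavy translation efficiency. DHX29 had log2 ratios of heavy over total of 0.88 and 1.496 in shNSi and of 0.05 and -0.85 in shDAP5. The groups did not overlap, with a change of -1.59 ± 0.36 (SE, adjusted p = 0.0075, edgeR quasi-likelihood test). DHX36, which resolves RNA G-quadruplexes, was at 127 and 165 CPM in shNSi heavy polysomes and at 59.7 and 42.6 in shDAP5, and its heavy translation efficiency changed by -1.46 ± 0.34. In both genes the shNSi cultures were the higher ones. DDX3X, which assists translation of mRNAs with structured leaders, was at 292 and 229 CPM in shNSi total mRNA and 212 and 303 in shDAP5 total mRNA, and at 579 and 494 against 286 and 181 in heavy polysomes. Its groups overlapped in total mRNA and not in heavy polysomes, and its heavy translation efficiency changed by -1.22 ± 0.37 (adjusted p = 0.0263, edgeR). DDX6, a decapping and repression factor, had a change of -0.86 ± 0.35 and DHX34, of nonsense-mediated decay, one of -0.36 ± 0.33, neither past the threshold.

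Of the 8 splicing helicases 5 fell (DDX42, DDX46, DHX8, DHX15 and DHX38), and the median log2 change of the 8 was -1.16. DHX15, which takes spliceosomes apart, was at 214 and 197 CPM in shNSi total mRNA and at 157 and 200 in shDAP5, and at 386 and 527 against 178 and 124 in heavy polysomes. Its heavy levels did not overlap between the groups, and its heavy translation efficiency was 2.66-fold lower. DDX46 was 3.06-fold lower. DDX41, also of the spliceosome, had a log2 change of 0.36 ± 0.33 that did not pass (adjusted p = 0.496, edgeR).

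Among the 14 reported helicases of ribosome biogenesis, 6 fell (DDX10, DDX18, DDX21, DDX24, DDX52 and DHX37), and the median log2 change was -0.81. DDX21 was at 381 and 337 CPM in shNSi total mRNA and at 220 and 419 in shDAP5. DDX24 was at 237 and 275 CPM in shNSi total mRNA and at 221 and 242 in shDAP5, and at 403 and 672 against 200.3 and 156 in heavy polysomes. In both genes the groups overlapped in total mRNA and not in heavy polysomes. The heavy translation efficiency of DDX21 was 3.08-fold lower (adjusted p = 0.0104, edgeR quasi-likelihood test), and that of DDX24 was 2.69-fold lower. DDX49 and DDX55 had changes of -0.08 and -0.17 that did not pass.

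All 5 helicases of transcription, small RNA processing and RNP assembly fell, namely DDX1, DDX5, DDX17, DDX20 and DHX9, with log2 changes between -1.59 and -1.10. DDX5 was at 590 and 614 CPM in shNSi total mRNA and at 604 and 626 in shDAP5, and at 949 and 1370 against 571 and 458 in heavy polysomes. Its total mRNA was nearly level between the groups while its heavy polysome levels did not overlap. DDX17, a close relative of DDX5, was at 282 and 283 CPM in shNSi heavy polysomes and at 149 and 108 in shDAP5, and DDX20, of the SMN complex, at 93.3 and 128 against 48.1 and 44.2. Neither overlapped between the groups. DHX9 had log2 ratios of heavy over total of 0.62 and 1.42 in shNSi and of -0.39 and -0.75 in shDAP5, a change of -1.59 ± 0.36 (SE, adjusted p = 0.00824, edgeR quasi-likelihood test).

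The antiviral helicases were split. DDX60 had the lowest change of all members in heavy translation efficiency, -1.72 ± 0.43 (SE, adjusted p = 0.0142, edgeR quasi-likelihood test), on low counts, at 13.8 and 12.3 CPM in shNSi heavy polysomes and at 7.4 and 3.57 in shDAP5. In shNSi total mRNA it was at 11.6 and 4.72 CPM, so the shNSi cultures differed from each other more than the groups did. DDX60L fell by 1.28 on the log2 scale, and DHX58 had a change of 0.25 ± 0.39. Of the mitochondrial ribosome helicases, DHX30 fell by 1.10 and DDX28 had a change of -0.16 ± 0.35. DHX57, with no single role listed, fell by 1.57, and DDX50, DDX59, DHX32, DHX35 and DHX40 did not pass.

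The 4 mRNA export helicases did not pass in heavy polysomes or in heavy translation efficiency. DDX39A was at 317 and 219 CPM in shNSi heavy polysomes and at 205 and 390 in shDAP5, and DDX39B was at 20.7 and 30.8 in shNSi and at 42.2 and 40.6 in shDAP5. The groups overlapped for DDX39A, and for DDX39B both shDAP5 cultures lay above both shNSi cultures. The log2 changes in heavy translation efficiency were 0.34 ± 0.36 for DDX39A, 0.52 ± 0.34 for DDX39B, -0.35 ± 0.35 for DDX19A and 0.24 ± 0.35 for DDX19B. DDX19A and DDX19B, which release mRNA at the nuclear pore, share 708 of their 50-base windows, or 8.24% of those of DDX19A and 14.7% of those of DDX19B, so their reads may be split between them. In GENCODE v29 23.8% of the exon bases of DDX19A and 15.7% of those of DDX19B are also shared with the protein-coding gene AC012184.2, so both values are uncertain. DDX11 and the pseudogene DDX12P, in which the share is 43.8% of the windows of DDX12P, did not pass in heavy translation efficiency, and DDX11 fell in heavy polysomes by 0.86.

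Light translation efficiency, light polysomes over total mRNA, showed 0 members past the threshold by edgeR's quasi-likelihood test, where 0% of 15967 genes were called, and 5 members at an unadjusted p under 0.05. DESeq2 and limma also called 0. The median log2 change was 0.18 for the members and 0.01 for all genes. DDX46 had the highest value, 0.64 ± 0.24, and DHX40 the lowest, -0.53 ± 0.22, both with an adjusted p of 0.879 by edgeR. Without shNSi culture 1, 13 members passed in light polysomes (12 lower, 1 higher) and 4 in light translation efficiency, where 28.9% and 12.3% of all genes were called. With the shNSi moderate pool in place of the light pool 7 passed in light translation efficiency too (5 lower, 2 higher), where 27.5% of all genes were called, and the median turned to -0.13. These shares of the members were at or below those of all genes.

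RNA helicases outside the symbol rule were read for comparison, 15 of them. In heavy translation efficiency 10 fell, among them UPF1 of nonsense-mediated decay, SNRNP200 and AQR of the spliceosome, and MOV10, and 0 rose. The eIF4A paralogs were not among them. EIF4A2 was at 678 and 793 CPM in shNSi total mRNA and at 691 and 732 in shDAP5, and at 643 and 699 against 686 and 647 in heavy polysomes, with overlap in both. EIF4A3, of the exon junction complex, had a log2 change of -0.06 ± 0.36. EIF4A1, the abundant initiation helicase, was listed at only 0.674 to 1.76 CPM in total mRNA, so its value is uncertain. Of 16 protein partners of the helicases 3 fell in heavy translation efficiency, CNOT1, NUP214 and TFIP11. Over all genes 8.23% fell on this measure.

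By family, 9 of 16 DHX and 14 of 33 DDX members fell in heavy translation efficiency, with medians of -1.03 and -0.76, and the median coding length was 3276 bases for DHX and 2196 for DDX. The difference between the families was not tested. Coding length moved with the change across all genes. Spearman's rho between coding length and the change in heavy translation efficiency was -0.71 across 12477 genes and -0.65 across the 48 members with a length, as a description across genes, which are not independent replicates and share the same libraries. The members' median coding length was 2343 bases, against 1437 for all genes. Of the 24 members at or above 2343 bases, 17 fell, with a median of -1.21, and of the 24 below it, 6 fell, with a median of -0.44. Over all genes 29.1% of 2967 at or above that length and 3.84% of 9510 below it fell, with medians of -0.76 and 0.21.

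**Figure D3:**
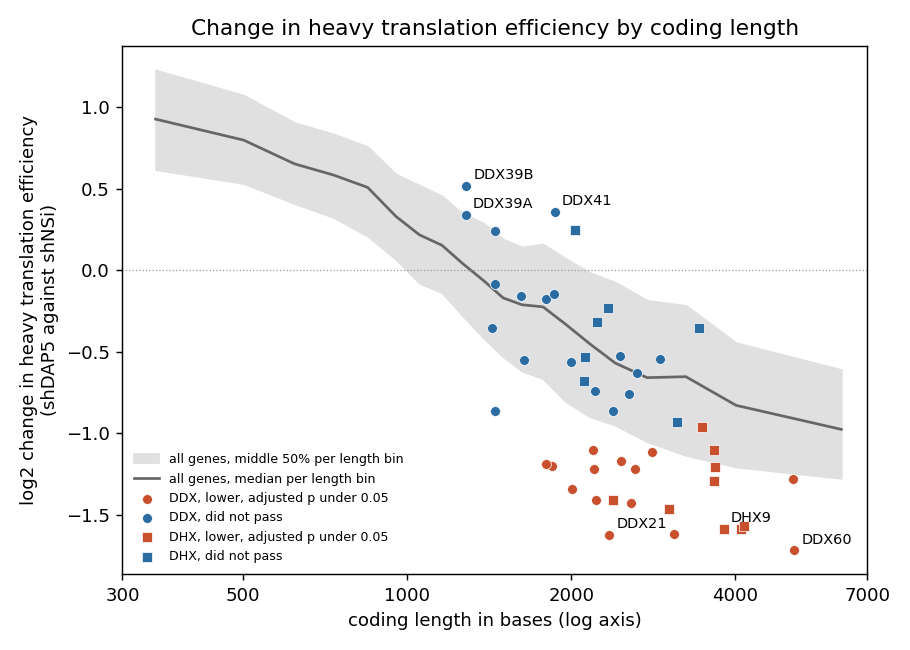
Log2 change in heavy translation efficiency against coding length in bases on a log axis, for 48 members (circles DDX, squares DHX, orange where called lower) over the median and middle 50% of all genes in 20 bins of length. Members follow the downward trend of all genes, most of the called ones lie below the grey band, and the 2 export helicases DDX39A and DDX39B are among the shortest.

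Genes of like length were also lower. Between 1863.75 and 3042 bases, the middle 50% of the members, the median log2 change in heavy translation efficiency was -0.81 for 24 members and -0.52 for 2565 genes, with 11 of the 24 and 19.8% of the genes called. With offsets fitted for coding length in each library, 5 members fell in place of 23, the median was -0.34, and all 23 were still below 0. With the same offsets 13 members fell in heavy polysomes, in place of 28. In the difference in heavy over light 12 fell and DHX40 rose, by 0.88 (adjusted p = 0.0422, edgeR), in place of 28 that fell, and 2 of those 28, DHX34 and DHX37, were above 0. Over all genes 3.17%, 12.5% and 5.04% were called with the offsets in heavy translation efficiency, heavy polysomes and the difference. The part of coding length in the result was not otherwise tested.

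The fall in the heavy pool rests on the pool used as control. With the shNSi moderate pool in place of the shNSi heavy pool, 0 members passed in heavy translation efficiency by edgeR (9 at an unadjusted p under 0.05), 46 of 49 had a positive change and the median was 0.62. With the shNSi heavy and moderate pools summed, 0 passed by edgeR (1 at an unadjusted p under 0.05), 33 were negative and the median was -0.13. The 23 called members were all below 0 with the summed pool and all above 0 with the moderate pool. In heavy polysomes 0 members passed by edgeR with the moderate pool (4 at an unadjusted p under 0.05) and 1 with the summed pools, and in the difference in heavy over light 0 and 0 (7 and 14 at an unadjusted p under 0.05). The loss of calls was not particular to the helicases, since over all genes 0.344% were called in heavy polysomes with the moderate pool and 2.77% with the summed pools, and 0% with either in heavy translation efficiency and in the difference. Since shNSi gradients were collected in 3 pools and shDAP5 gradients in 2, a change in an mRNA's place and a change in where the pools were divided cannot be told apart from these libraries.

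**Figure D4:**
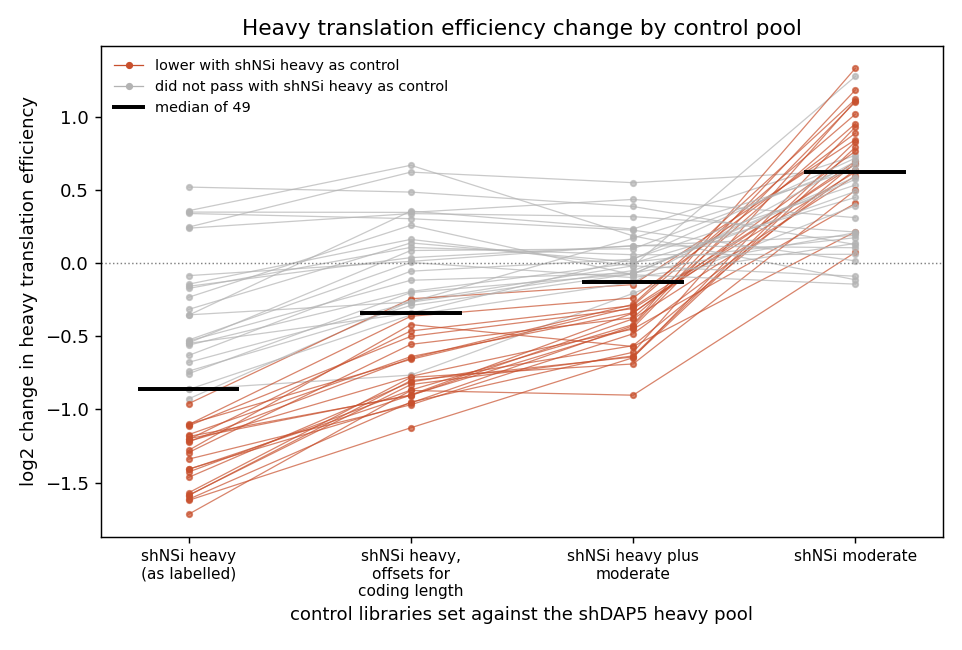
Log2 change in heavy translation efficiency of the 49 helicases with 4 choices for the control: the shNSi heavy pool, the same with offsets for coding length, the shNSi heavy and moderate pools summed, and the shNSi moderate pool. Lines join the values of 1 gene, orange for the 23 called with the heavy pool, and black bars are medians, which run from -0.86 through -0.34 and -0.13 to 0.62.

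The calls also rest on single cultures. With 1 culture left out, its group had 1 culture, which was assumed to vary like those of the other group, since these alone gave the spread. Without shDAP5 culture 2, 0 members passed by edgeR in heavy polysomes, heavy translation efficiency or the difference in heavy over light, where 26, 25 and 26 had an unadjusted p under 0.05. The loss was not particular to the helicases, since 0.0134%, 0.27% and 0% of all genes were then called, and the median log2 changes of the members were -0.986, -0.77 and -0.94, against -0.999, -0.86 and -1.04 with all cultures. Without shNSi culture 2, 18 passed in heavy polysomes and 0 in the other 2 measures, where 14 and 33 had an unadjusted p under 0.05, against 14.1%, 0.025% and 0% of all genes called. Without shNSi culture 1, 12 passed in heavy translation efficiency (3.59% of all genes), and without shDAP5 culture 1, 14 passed in the difference in heavy over light (10.5% of all genes). Heavy over light within shDAP5 gave 14 and 17 calls without shDAP5 culture 1 or 2, in place of 31, with 19.4% and 19.0% of all genes called. In heavy translation efficiency the log2 change of DDX21 was -2.31 without shDAP5 culture 1 and -0.94 without shDAP5 culture 2, that of DDX3X was -1.80 without shDAP5 culture 1, and that of DDX60 was -2.36 without shNSi culture 1, -2.36 without shDAP5 culture 1 and -1.10 without shDAP5 culture 2. The values of DDX21 and DDX60 without shDAP5 culture 2 did not pass. Scaling by library size without TMM, which moved the median change of all genes in heavy translation efficiency from 0.09 to 0.30, left 0 members called there by edgeR (25 at an unadjusted p under 0.05), where 0% of all genes were called, and 20 lower and 1 higher in heavy polysomes, where 25.5% were called.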

How the data were processed

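The deposited table holds whole-number read counts per gene symbol, without normalization. Per the submitters' processing notes, which give no roles, STAR 2.6.0a, limma and the hg19 build were used. The name of the deposited table gives featureCounts as the counting tool. The authors quantile normalized total and polysome mRNA independently and tested with limma, which was run here as an alternative. Counts were filtered with filterByExpr, scaled by TMM and tested in R 4.3.3 with the robust quasi-likelihood test of edgeR 4.0.16, with 1 fit of 4 libraries for each fraction. Translation efficiency used 8 libraries and heavy over light 12 libraries, with a term for each culture and the interaction of fraction with shRNA. Benjamini-Hochberg adjustment was applied over all genes of a fit, with a threshold of 0.05.

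CPM values are TMM-scaled over the 4 libraries of a fraction. Heavy over total and heavy over light ratios use TMM factors fitted over all libraries of their own fit (8 or 12), so they differ from quotients of the printed CPM. Coding lengths (longest coding sequence of a gene), exon lengths and sequences came from GENCODE v29 on GRCh38, matched by symbol, for 37621 symbols. Depth was at least 25899838 counts a library, and each group had 2 cultures. The genes named were fixed by a rule: the 6 members at each end in heavy translation efficiency and the 3 in each other comparison, among members past the threshold without overlap, plus a list by role, the ends of the heavy over light order and EIF4G2. DHX32, DHX40, DHX34, DDX11, DDX20, DDX41, DDX49, DDX55 and DDX60L, and the genes listed as called or by highest pool, were named after their values were seen. The members and lists were chosen with earlier results of these data known. Alternatives were DESeq2 1.42.0, library sizes without TMM, limma 3.58.1 on log2 of CPM plus 1, other filters (none, or at least 10 counts in every library), a replicate block, each culture left out, other shNSi pools as control and offsets for coding length.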

Additional observations from a re-analysis of the deposited data

Results flagged for a closer look

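The effect of the gradient fraction, heavy over light polysomes, differed between shDAP5 and shNSi for 28 of the 49 helicases by the interaction test of edgeR, where 18.3% of 16163 genes were called, 11.5% lower and 6.89% higher. The 3 lowest differences on the log2 scale were -2.30 for DDX46, -2.14 for DHX9 and -2.12 for DHX29. They are listed because the same contrast differed between the 2 shRNAs by a test of the difference itself. With the shNSi moderate pool in place of the heavy pool the same values were 0.47, 0.34 and 0.31, and their cause was not tested.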

How the results depend on the processing

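In total mRNA 0 members were called by edgeR, DESeq2 or limma under each alternative run (0 to 10 at an unadjusted p under 0.05). In heavy polysomes 28 members fell, against 0 with the shNSi moderate pool as control (0.344% of all genes called), 1 with the heavy and moderate pools summed (2.77%), 13 with length offsets (12.5%) and 0 to 30 with 1 culture left out. In heavy translation efficiency 23 fell, against 0 without TMM, 3 by limma on quantile normalized values (2.65% of all genes), 0 with the moderate pool, 0 with the summed pools, 5 with length offsets (3.17%) and 0 to 26 with 1 culture left out. DESeq2 called 25 there (13.8% of all genes), and on this measure 0% of all genes were called without TMM or with either other pool. In the difference in heavy over light 28 fell, against 0 with the moderate pool, 0 with the summed pools (0% of all genes with either), 13 called with length offsets (12 lower, 1 higher, and 5.04% of all genes) and 0 to 26 called with 1 culture left out. Heavy over light in shDAP5 gave 31, and 14 to 33 with 1 culture left out (14 without shDAP5 replicate 1 and 17 without shDAP5 replicate 2). In light polysomes 7 passed with the shNSi moderate pool in place of light (6 lower and 1 higher, with a median of -0.40, and 25.5% of all genes) and 0 to 13 with 1 culture left out (13 without shNSi replicate 1), and in light translation efficiency 7 (27.5% of all genes) and 0 to 4, against 0 in both. The cause of these moves was not tested.

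By replicate number, deviations from the group means correlated between the groups at -0.10 in total mRNA and 0.05 in light and in heavy polysomes. In heavy over total the correlation was -0.20. These values do not settle whether the cultures were run in pairs, which the labels do not say. With the replicate block 10 members were called in heavy translation efficiency, 29 in heavy polysomes and 21 in the difference in heavy over light, where 4.48%, 33.0% and 11% of all genes were called.

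With the moderate pool the median change of the members turned to 0.38 in heavy polysomes, 0.62 in heavy translation efficiency and 0.38 in the difference in heavy over light, and in light translation efficiency to -0.13 with the moderate pool as light. In heavy polysomes DHX9 turned to 0.35, DDX21 to 0.67 and DDX1 to 0.67. In heavy translation efficiency the turned values were 0.075 for DDX60, 0.93 for DDX21, 1.11 for DDX46, 0.79 for DHX29, 0.83 for DHX9, 0.50 for DHX57, 0.41 for DDX3X, 0.39 for DDX6, 0.69 for DHX36, 0.64 for DDX19A, 1.10 for DHX15, 1.12 for DDX10, 0.77 for DDX5, 0.68 for DDX17, 0.89 for DHX30, 0.19 for DDX28, -0.31 for EIF4A2 and 0.49 for EIF4A3. In the difference in heavy over light DDX46 turned to 0.47, DHX9 to 0.34 and DHX29 to 0.31.

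Uncalled genes near 0 turned sign in heavy translation efficiency under other settings. EIF4A2 was -0.042 by DESeq2, -0.0053 without the filter, -0.061 with the summed pools and -0.066 with length offsets. DDX28 was 0.056 without TMM, 0.12 with the summed pools and 0.038 with length offsets, EIF4A3 was 0.15 without TMM, 0.16 by limma and 0.23 with the summed pools, and DDX19A was 0.17 with the summed pools. With 1 culture left out the ranges were -0.063 to 0.096 for EIF4A2, -0.39 to 0.25 for EIF4A3, -0.35 to 0.023 for DDX28, -0.056 to 0.52 for DDX19B and -0.13 to 0.77 for DDX39A. DHX58 had 82 to 161 counts a library, DDX12P 66 to 219 and DDX60 78 to 365, and the part of depth in their values was not tested.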
